A study of Homo sapiens with 39 samples.

Results

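The 10 genes followed here, from antioxidant defence, iron storage and ferroptosis, were taken by name from a gene-level RNA-seq table: NQO1, HMOX1, GCLM, SLC7A11, TXNRD1, SRXN1, FTH1, FTL, GPX4 and ACSL4. They are 10 of the 60671 genes in the table, and each was matched by its symbol to 1 Ensembl identifier. The 39 libraries came from A375 and WM115, a pair of established human melanoma cell lines, polyadenylated RNA having been captured on oligo-dT beads and copied with random hexamers. Per the labels, the cells were either wild type (WT) or clones with a deletion of R1 or of R4, which are enhancer regions of SOX10.

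For A375 there were 18 libraries: R4 clones 4.1 (n = 4) and 4.2 (n = 3), R1 clones 1.1 (n = 3) and 1.2 (n = 4), and WT (n = 4). For WM115 there were 21: R4 clones 4.1 (n = 3) and 4.2 (n = 3), R1 clones 1.1 (n = 5) and 1.2 (n = 3), a clone 1.3 (n = 3), and WT (n = 4). The title of clone 1.3 points to R1 and its genotype label to R4, so it was kept apart from both deletions. No treatment or time is named in the labels. The libraries of a clone repeat that clone, and nothing says that replicates were separate cultures, so p-values measure the spread between these libraries, which may be technical. A difference between a clone and WT is therefore a difference of that clone, whatever its deletion.

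Values were TPM, a gene's length-corrected share of its library on a fixed total, from which sequencing depth cannot be read. The mitochondrial genome supplied 0.968% to 4.92% of TPM in A375 libraries and 4.71% to 19.4% in those of WM115. Across genes, r between libraries of the same group ran from 0.924 to 0.988, and no pair was identical. SOX10, the gene beside the deleted regions, averaged 682 ± 35.6 TPM in A375 WT (SD, n = 4) and 507 ± 48.3 TPM in WM115 WT (SD, n = 4). It was lowest in WM115 R1 clone 1.2, where replicate 3 had 9.56 TPM, and this library stands apart from the other 2 of the clone. Of 8 melanocyte lineage markers, 8 reached 1 TPM in at least 1 library of WM115 and 5 in A375. In A375 the pigment enzyme TYR stayed under 0.1 TPM in each library. In WM115, MLANA, TYR and DCT each fell to 0 TPM in at least 1 library. The 8 markers summed to 44.3 to 2864 TPM in WM115 libraries and 494 to 1343 TPM in those of A375. Among markers of other cell types, the leukocyte list was carried by CD68 alone. Of the fibroblast list, COL1A2 reached 857 TPM in WM115 and at most 0.345 TPM in A375. The other fibroblast markers, COL1A1, DCN, PDGFRB and LUM, reached at most 26.4 TPM in WM115 and 10.2 TPM in A375. KRT10 was the highest of the keratinocyte list, reaching 98.4 TPM in A375 and 76.7 TPM in WM115. KRT14 reached 30.4 TPM in A375 and 3.65 TPM in WM115. Of the endothelium list, PECAM1 reached 12.0 TPM and CDH5 4.04 TPM in WM115, against 1.07 and 0.164 TPM in A375.

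NRF2, encoded by NFE2L2, is a transcription factor that is degraded through KEAP1 under resting conditions and accumulates when electrophiles or oxidants modify KEAP1. It binds antioxidant response elements with small MAF proteins, and BACH1 represses many of the same sites. Ferroptosis is an iron-dependent form of cell death in which phospholipid peroxides accumulate, and melanoma cells of an undifferentiated kind are known for being sensitive to it. The first 6 genes of the list are classic NRF2 targets. NQO1 reduces quinones, HMOX1 degrades heme and releases iron, GCLM is the modifier subunit of the first enzyme of glutathione synthesis, SLC7A11 imports cystine, TXNRD1 reduces thioredoxin, and SRXN1 repairs overoxidised peroxiredoxins. FTH1 and FTL, the heavy and light chains of the iron store ferritin, respond to NRF2 and are also controlled in translation by iron regulatory proteins. GPX4 reduces lipid peroxides, and ACSL4 activates polyunsaturated fatty acids for their entry into phospholipids, the substrate of ferroptosis.

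Promoter sites of GCLM and TXNRD1, 2 of the NRF2 targets that varied together, and 1 exon of NQO1 that its transcripts differ by are shown first. RefSeq promoter windows (GRCh38.p14) were found for 7 of the 10 genes, and HMOX1, SLC7A11 and FTH1 were not matched. The core of the antioxidant response element, TGACNNNGC on either strand, was searched in the 250 bases before each start site. It was present in 2 of the 7 windows, those of GCLM and TXNRD1, and in 11% of all windows (3013 of 27305). Capitals mark the match, and each site is written in the orientation that reads TGAC first.
GCLM: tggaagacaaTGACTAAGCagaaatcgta
TXNRD1: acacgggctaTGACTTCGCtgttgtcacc
The GCLM stretch lies at chr1:93909446-93909474 (GRCh38.p14), with its match 26 to 34 bases before the start site and on the strand opposite to the gene. The window crosses the outermost start of GCLM in GENCODE 29, at position 93909456. The TXNRD1 stretch lies at chr12:104215670-104215698, with its match 91 to 99 bases before the start site, on the strand of the gene. That start is the outermost of TXNRD1 in GENCODE 29, at position 104215779. The most abundant transcripts, TXNRD1-214, TXNRD1-206, TXNRD1-205 and TXNRD1-219, start far downstream of this window, between positions 104286682 and 104287368. The site is therefore not in the 250 bases before their starts. The NQO1 window, without a match, lies before the start of NQO1-206 and NQO1-204 at position 69726560. NQO1-201 starts further out, at position 69726951, and the bases before that start were not searched. A gene without a match in its 250 bases may hold one elsewhere. A match describes these letters only, and binding was not measured.

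The exon is the fourth of 6 in the reference transcript NQO1-201, a coding exon of 114 bases, or 38 codons, at chr16:69714964-69715077 on the minus strand (GENCODE 29, GRCh38). It is printed because transcripts with and without it were present in different proportions in the 2 lines.
NQO1 exon 4: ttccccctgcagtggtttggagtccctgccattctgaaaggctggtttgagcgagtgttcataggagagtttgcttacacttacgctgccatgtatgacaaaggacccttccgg

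Levels spanned a wide range, and the ferritin chains dominated. FTH1 and FTL together made up 65.3% to 88.2% of the summed TPM of the 10 genes in A375 libraries and 68.5% to 86.6% in WM115 libraries. They were 0.206% to 0.747% of the whole library in A375 and 0.389% to 1.69% in WM115. In A375 WT the order by mean TPM was FTH1, FTL, NQO1, GPX4, TXNRD1, SRXN1, ACSL4, GCLM, SLC7A11 and HMOX1. The 3 genes at the bottom of that order, at 14 ± 8.74, 12.7 ± 6.13 and 9.99 ± 5.81 TPM (SD, n = 4), lay within each other's spread. In WM115 WT the order was FTH1, FTL, NQO1, GPX4, TXNRD1, ACSL4, SRXN1, GCLM, HMOX1 and SLC7A11. There ACSL4 at 36.8 ± 4.1 and SRXN1 at 35.1 ± 1.40 TPM (SD, n = 4) were within their spread, while GCLM at 14.2 ± 1.22 and HMOX1 at 8.80 ± 1.35 TPM did not overlap between libraries.

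**Figure D1:**
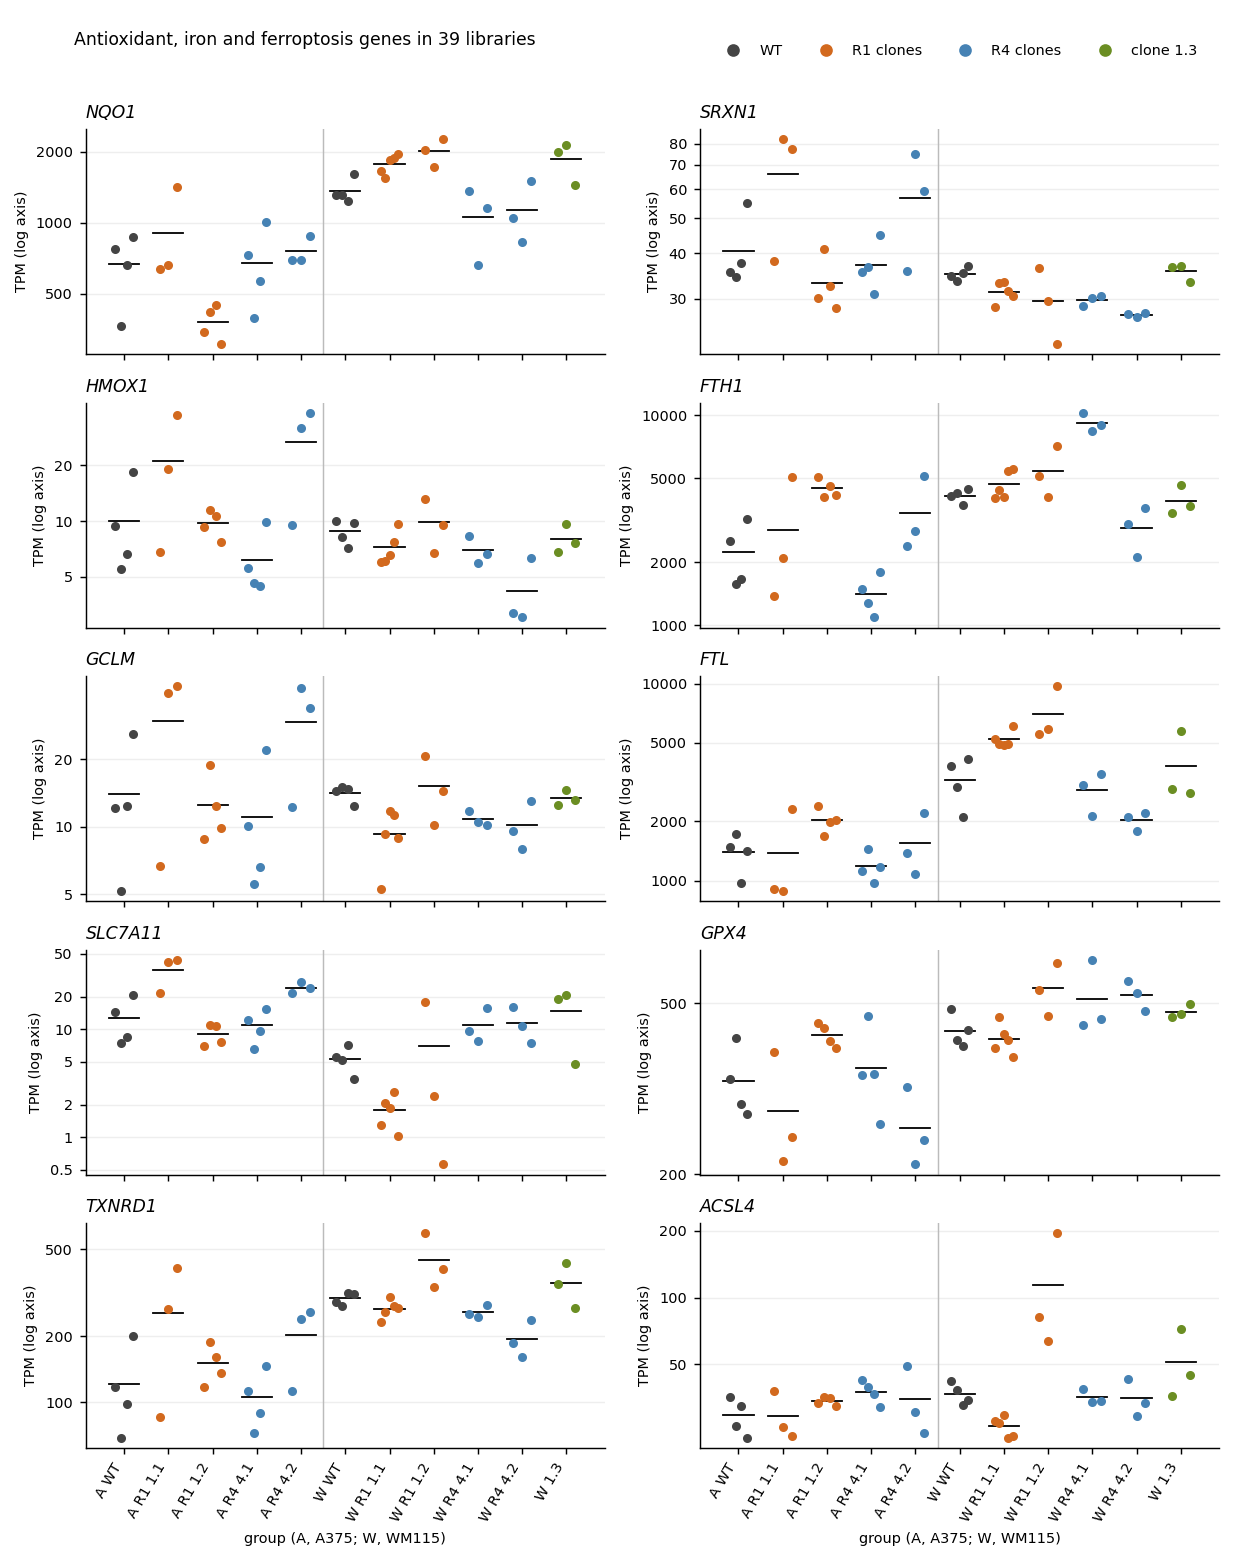
TPM of each gene on a log axis in 39 libraries, by group on the horizontal axis (A, A375; W, WM115), with 1 point per library and a bar at the group mean. NQO1 and FTL are higher in WM115 WT than in A375 WT, FTH1 is highest in WM115 R4 clone 4.1, and the NRF2 targets scatter widely within A375 groups.

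Ferritin is encoded at many processed pseudogenes, so the counting could divide reads among near-identical copies. The 24 FTH1 pseudogenes in the table summed to 1.27% to 2.29% of FTH1 TPM, and the 16 FTL pseudogenes to 0.464% to 1.22% of FTL TPM. How many reads were assigned to the wrong copy was not measured, and FTH1 and FTL values are uncertain for that reason.

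The WT libraries of the 2 lines were compared first, as the background on which the clones stand. WM115 WT had more NQO1, TXNRD1, FTH1, FTL and GPX4 RNA than A375 WT, and no gene of the 10 passed the test in the other direction with the values as deposited, while SLC7A11 did so under other scalings. Of all 18662 genes tested, 48.8% passed in this comparison, against 5 of the 10 genes here, so the share is close to that of all genes. The median log2 difference was 0.36 for the 10 genes and 0.02 for all genes tested. Line, culture and passage cannot be told apart.

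NQO1 was at 778, 365, 662 and 874 TPM in A375 WT replicates 1 to 4, and at 1317, 1307, 1236 and 1608 TPM in WM115 WT. Each WM115 library lay above each A375 library, and the log2 difference of 1.09 (SE 0.27) passed the limma test with an adjusted p of 0.00112. NQO1 is the quinone reductase often used as the reporter of NRF2 activity. TXNRD1 showed the largest difference among the NRF2 targets, with 117, 68.8, 98.1 and 201 TPM in A375 WT and 287, 276, 317 and 313 TPM in WM115 WT. The groups did not overlap, and the log2 difference was 1.40 (SE 0.32, limma adjusted p = 0.000544).

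Both ferritin chains were higher in WM115. FTH1 was at 2510, 1571, 1671 and 3219 TPM in A375 WT, and at 4130, 4260, 3716 and 4442 TPM in WM115 WT. FTL was at 1489, 1731, 975 and 1408 TPM in A375 WT, and at 3811, 2987, 2100 and 4124 TPM in WM115 WT. Neither gene overlapped between the lines, with log2 differences of 0.94 for FTH1 (SE 0.28, limma adjusted p = 0.00549) and 1.2 for FTL (SE 0.27, limma adjusted p = 0.000498).

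SLC7A11, the cystine importer, was at 14.2, 7.36, 8.52 and 20.7 TPM in A375 WT and at 5.57, 5.14, 7.15 and 3.44 TPM in WM115 WT. Each WM115 library lay below each A375 library, yet the log2 difference of -1.04 (SE 0.47) missed the threshold in limma, with an adjusted p of 0.0641. It passed as lower under median-of-ratios scaling (adjusted p = 0.0449), under quantile normalization (0.0356), in a fit of the WT libraries alone (0.0299) and without A375 WT replicate 2 (0.0401). In all, 5 of the 10 genes did not overlap between the WT groups, against 41.6% of all genes tested. GPX4 passed at 0.40 (SE 0.16, limma adjusted p = 0.0416) with overlapping libraries. Leaving out any of 6 of the 8 WT libraries, A375 replicates 1, 3 and 4 and WM115 replicates 1, 2 and 4, ended that call, with adjusted p from 0.0539 to 0.132. HMOX1, GCLM, SRXN1 and ACSL4 overlapped between the lines, with log2 differences from -0.18 to 0.32.

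The regulators of the pathway were read from a list of 80 pathway genes, 76 of which were tested. NFE2L2 RNA was at 63.5 ± 9.17 TPM in A375 WT and 125 ± 9.01 TPM in WM115 WT (SD, n = 4 each), a log2 difference of 0.97 (SE 0.13, limma adjusted p = 2.84e-07). KEAP1 did not pass, at a log2 difference of -0.13 (limma adjusted p = 0.431), and neither did BACH1, at 0.52 (limma adjusted p = 0.0737). Of the 76 pathway genes, 30 were higher and 9 lower in WM115 WT, or 51.3%, close to the 48.8% of all genes.

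NQO1 transcripts differed between the lines in a way that the gene-level value does not show. The transcript table splits NQO1 into 7 transcripts, 6 of which span the printed exon 4. Transcript NQO1-202, which lacks it, carried 35.7% to 50.2% of NQO1 TPM in A375 libraries and 15.5% to 21.2% in WM115 libraries. NQO1-206, which holds it, carried 27.9% to 37.8% in A375 and 40.3% to 45.8% in WM115. Among the spanning transcripts together, those with the exon made up 44.8% to 55.4% in A375 (median 51.2%, n = 18) and 59.8% to 65.4% in WM115 (median 63.0%, n = 21). No A375 library reached the lowest WM115 library.

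The exon share held to its line in WT and clones alike. In WT it was 51.6% ± 0.98 in A375 and 62.6% ± 0.71 in WM115 (SD, n = 4 each). The lowest group mean was 48.5% in A375 R1 clone 1.2 and the highest 64.1% in WM115 R4 clone 4.1. NQO1-204, another transcript without the exon, carried a larger share in WM115, unlike NQO1-202. These shares are estimates that a quantifier assigns among overlapping models, the 2 main transcripts also differ at both ends, and no test was made of them.

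**Figure D2:**
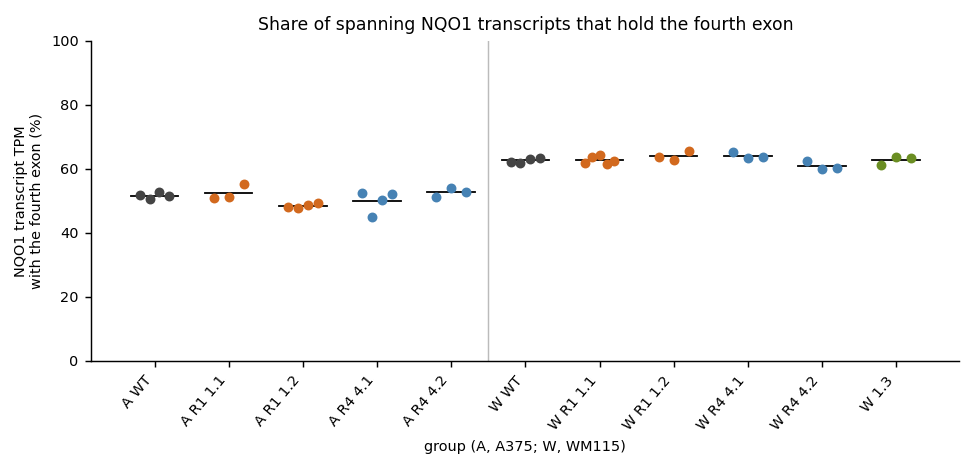
Share of TPM, in percent, that spanning NQO1 transcripts with the fourth exon hold, by group (A, A375; W, WM115), with 1 point per library and a bar at the group mean. The A375 libraries sit between 44.8% and 55.4% and the WM115 libraries between 59.8% and 65.4%.

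HMOX1, SLC7A11 and GPX4 each had 1 dominant transcript in both lines. HMOX1-201 carried 81.9% to 100% of HMOX1 TPM, SLC7A11-201 87.0% to 100% of SLC7A11, and GPX4-210 79.0% to 87.3% of GPX4. GCLM was divided between GCLM-201, with a median share of 62.7% in A375 and 56.5% in WM115, and GCLM-204, with 37.2% and 42.3%. The most abundant FTH1 transcript, FTH1-206, had a median of 45.3% in A375 and 44.8% in WM115, and ACSL4-214 carried 47.4% to 75.6% of ACSL4 over the libraries of both lines. TXNRD1 was spread over 24 transcripts, with TXNRD1-214 the most abundant at 24.9% to 41.0%. SRXN1 and FTL have a single transcript in the table.

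Clones of A375 were then compared with A375 WT, 10 genes in each of 4 clones. SLC7A11 in R1 clone 1.1 was the 1 of these 40 comparisons that passed the test, in a clone where 1.04% of 16692 genes passed. It was at 21.5, 41.4 and 43.8 TPM in clone 1.1, each above the highest WT library at 20.7 TPM, and was the 1 gene of the 10 with no overlap, against 7.41% of all genes. The log2 difference was 1.46 (SE 0.33), or 2.74-fold on the log2(TPM + 1) scale, with a limma adjusted p of 0.0400.

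The call depended on single libraries. Leaving out 1 library at a time ended it for 11 of the 18 A375 libraries, with adjusted p from 0.0525 to 0.23. Those were WT replicates 1, 2 and 3, clone 1.1 replicates 2 and 3, clone 1.2 replicates 3 and 4, clone 4.1 replicates 1 and 3, and clone 4.2 replicates 2 and 3. The difference itself stayed between 1.25 and 1.77 in those fits. The call also ended with no filter on low values (adjusted p = 0.0839), with the mitochondrial share as a term (0.0547), in a fit of clone 1.1 and WT alone (0.339) and in a fit blocked on replicate numbers (0.608). It held with the ribosomal protein share as a term, at 1.06 (0.00956). SLC7A11 was also above all WT libraries in R4 clone 4.2, at 21.7, 27.1 and 23.8 TPM, with a log2 difference of 0.98 (SE 0.33) that did not pass (limma adjusted p = 0.423, 0.557% of genes called in this clone). It was again the 1 of the 10 genes with no overlap, against 6.52% of all genes.

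The other NRF2 targets in clones 1.1 and 4.2 had positive differences that their spread covered. In clone 1.1, HMOX1 was at 6.77, 19.1 and 37.4 TPM, GCLM at 6.72, 39.7 and 42.4 TPM, and TXNRD1 at 85.6, 268 and 410 TPM. Replicate 1 lay within the WT range for these genes, and replicates 2 and 3 lay above the highest WT library. In clone 4.2 the same 2 replicates were high, with HMOX1 at 9.58, 31.9 and 38.5 TPM and GCLM at 12.3, 41.9 and 33.9 TPM. The median log2 difference of the 10 genes was 0.52 in each of the 2 clones, against 0.01 and 0.06 over all genes tested. Same-numbered libraries of these 2 clones deviated together across genes, at r from 0.435 to 0.740. With WT they did not, at r from -0.360 to -0.0305 for clone 1.1 and from -0.429 to -0.00677 for clone 4.2. The part of this grouping in their differences from WT was not tested.

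In R1 clone 1.2 none of the 10 genes passed. FTH1, the ferritin heavy chain, was at 5081, 4068, 4602 and 4156 TPM, each above the highest WT library at 3219 TPM, the 1 of the 10 genes with no overlap, against 13.8% of all genes. Its log2 difference of 1.05 (SE 0.34) missed the threshold (limma adjusted p = 0.0676), in a clone where 8.53% of genes passed. NQO1 was at 344, 419, 448 and 306 TPM, with a difference of -0.76 (SE 0.31) that did not pass (limma adjusted p = 0.161). With the libraries of clone 1.1 replicate 1, clone 1.1 replicate 3 or WT replicate 4 left out, FTH1 passed, at adjusted p of 0.0374, 0.0199 and 0.0436. It also passed in a fit of this clone and WT alone (0.0305) and with the mitochondrial share as a term (0.0498). NQO1 passed without WT replicate 2, at -1.03 (adjusted p = 0.0387). In a fit with the ribosomal protein share as a term, NQO1 passed at -1.07 (limma adjusted p = 0.00323). SLC7A11 at -0.70 (0.0103) and GPX4 at 0.57 (0.0072) passed there too. Without that term, SLC7A11 was at -0.37 (limma adjusted p = 0.539) and GPX4 at 0.38 (0.304).

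R4 clone 4.1 shared its replicate structure with WT, and the pairing changes what is called. Same-numbered libraries of the clone and WT deviated together in all 4 pairs, at r from 0.326 to 0.776 across genes. Without pairing none of the 10 genes passed and 1.31% of genes did, and none was without overlap, against 7.12% of all genes. With the replicate number as a block, HMOX1 fell by 0.55 (SE 0.13, limma adjusted p = 0.0372), FTH1 fell by 0.63 (SE 0.10, limma adjusted p = 0.0110), and ACSL4 rose by 0.36 (SE 0.09, limma adjusted p = 0.0469). Those are 3 of 10, where 11.7% of all genes passed in the same fit.

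The paired values show the direction in each replicate. HMOX1 was at 5.55, 4.61, 4.49 and 9.95 TPM in clone 4.1, each under its WT partner, at 9.43, 5.51, 6.67 and 18.4 TPM. FTH1 was at 1485, 1274, 1092 and 1789 TPM, again each under its WT partner. ACSL4, the enzyme that supplies peroxidisable lipids, was at 42.4, 39.4, 36.8 and 32.3 TPM, each above its WT partner at 35.7, 26.3, 32.5 and 23.3 TPM.

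**Figure D3:**
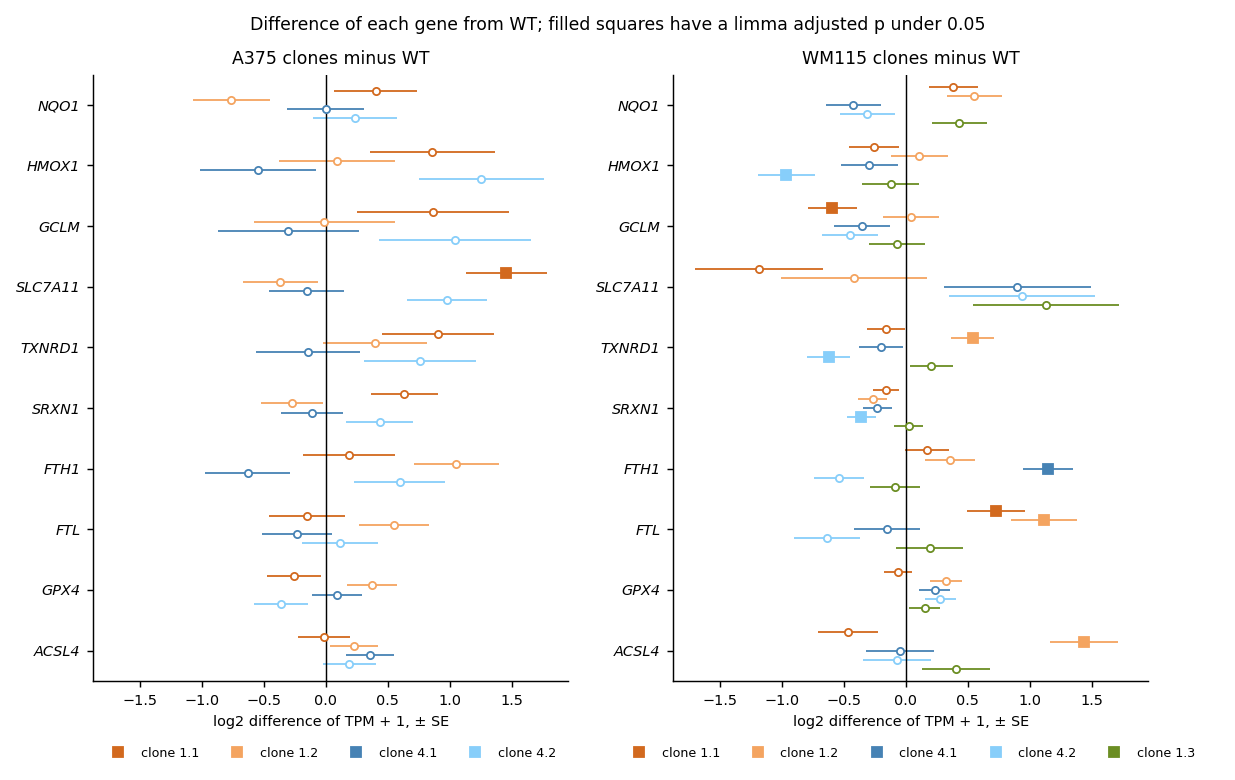
Log2 difference from WT of each gene (vertical axis) in each clone, A375 on the left and WM115 on the right, with bars of 1 SE and filled squares for an adjusted p under 0.05. In A375 1 passes, SLC7A11 in clone 1.1, and 9 pass in WM115, the largest being ACSL4 in clone 1.2.

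The spread within A375 groups was itself ordered. Taken as deviations from group means, the 6 NRF2 targets moved together over the 18 A375 libraries. Pearson's r was 0.96 for GCLM with TXNRD1 and for HMOX1 with TXNRD1, and 0.92 for GCLM with SRXN1, and the lowest of the 15 pairs was 0.45, for NQO1 with SRXN1. FTH1 moved with these 6 as well, at r from 0.60 with SRXN1 to 0.87 with HMOX1. GPX4 ran the other way, with r of -0.89 against GCLM. ACSL4 did so too, at r from -0.80 against HMOX1 to -0.28 against NQO1. Genes of a library share its RNA preparation, its depth and the closed sum of TPM, and these values are a description.

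Which libraries were high followed a pattern across groups. The mean deviation of the 6 genes was lowest in replicate 2 and highest in replicate 4 in both WT (-0.67 and 0.75 on the log2 scale) and clone 4.1 (-0.46 and 0.63). In clones 1.1 and 4.2 it was lowest in replicate 1 (-0.98 and -0.63), and these 2 clones also deviated together across all genes, at r from 0.435 to 0.740 over 3 same-numbered pairs. GCLM differed 5.03-fold between the lowest and highest WT libraries and 6.31-fold between those of clone 1.1. HMOX1 differed 3.33-fold and 5.52-fold.

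The same ordering runs through much of the A375 transcriptome. Of the 16686 other genes tested in A375, 20.3% correlated at 0.7 or more with the mean deviation of the 6 genes and 14.7% at -0.7 or less. In WM115 the shares were 0.530% and 0.0412%. Of the 74 pathway genes tested in A375, 18 were at 0.7 or more and 7 at -0.7 or less. Those shares are near the ones for all genes. The 18 included SLC3A2, the partner chain of SLC7A11 (0.93), MGST1, a glutathione transferase (0.94), and the thioredoxin gene TXN (0.90). The 7 were SAT1 (-0.88), SCD (-0.87), TXNIP (-0.85), BACH1 (-0.84), ACO1 (-0.82), BLVRB (-0.81) and DHCR7 (-0.71). Over the 9 other NRF2 targets of the list that were tested, the median r was 0.08, with PIR at 0.88 and AKR1C2 at -0.67.

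The share of TPM in ribosomal protein genes, 16.6% to 26.0% over A375 libraries, had an r of -0.79 with the mean deviation. The number of genes at 1 TPM or more had an r of -0.59, the mitochondrial share -0.04 and the share in transcripts with a retained intron -0.01. Their part in the result was not tested. Among individual genes, r with the ribosomal protein share was -0.87 for SLC7A11, -0.80 for GCLM and 0.80 for GPX4.

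**Figure D4:**
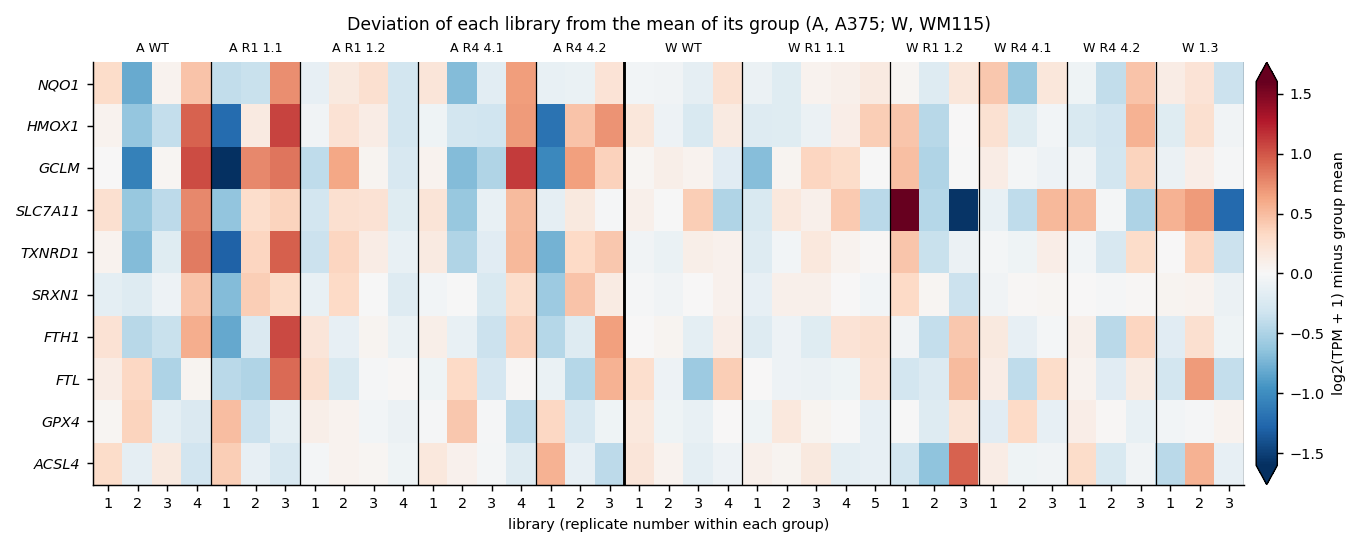
Deviation of log2(TPM + 1) from the group mean for each gene (rows) and library (columns, by group and replicate), with colour from low to high. In A375 the 6 NRF2 targets are low together in WT replicate 2 and clone 1.1 replicate 1 and high together in WT replicate 4, while WM115 columns are paler except for SLC7A11.

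The spread within groups was then set against that of all genes with a mean of at least 5 TPM. In A375 the within-group SD of GCLM was 0.90 on the log2 scale, and 2.03% of 11000 genes were more variable. HMOX1 had an SD of 0.74 (4.33% more variable) and TXNRD1 one of 0.66 (6.27%). The other NRF2 targets were less extreme, NQO1 at 0.48 (14.8%), SLC7A11 at 0.46 (16.5%) and SRXN1 at 0.38 (27.3%). In WM115 the order was different: SLC7A11 had the largest SD, 0.85 (1.95% of 11203 genes more variable), while SRXN1 had 0.14 (91.4%) and GPX4 0.16 (83.8%).

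WM115 clones were compared with WM115 WT in the same way. Of the 50 comparisons 9 passed, 5 higher and 4 lower, in clones where 1.06% to 24.2% of all genes passed, as given with each clone. No gene was called in the same direction in all 4 clones of known region. The ribosomal protein share was 11.1% to 12.8% in WT and 15.1% to 17.4% in clones 1.1, 1.2, 4.1 and 4.2, with no overlap, so clone and ribosomal share cannot be told apart. In a fit with that share as a term, chosen after the data were seen, 1 of the 9 calls remained, FTH1 in clone 4.1. The 8 others kept their sign in that fit. HMOX1 was at -0.76, TXNRD1 at -0.84 and SRXN1 at -0.44 in clone 4.2, and ACSL4 at 1.18 in clone 1.2, while FTL was at 0.36 in clone 1.1 and 0.72 in clone 1.2, TXNRD1 at 0.30 in clone 1.2 and GCLM at -0.50 in clone 1.1, with adjusted p from 0.140 to 0.698.

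FTH1 in R4 clone 4.1 was the most stable of the calls. It was at 10242, 8388 and 8941 TPM, against 4130, 4260, 3716 and 4442 TPM in WT. Each clone library was above each WT library, and the log2 difference of 1.15 (SE 0.20) was 2.22-fold on the log2(TPM + 1) scale, with a limma adjusted p of 0.000679. In this clone 24.2% of 16997 genes passed. The call held in 32 of 32 alternative analyses, with adjusted p from 0.000152 to 0.0444.

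FTH1 lies on chromosome 11 (61959718 to 61967660, minus strand, GRCh38), where the median log2 difference of 913 tested genes in clone 4.1 was 0.29. Above that median FTH1 stood at 0.86. FTL, the light chain, lies on chromosome 19 and did not pass, at -0.15 (limma adjusted p = 0.722), with 2135 to 3482 TPM in clone 4.1 and 2100 to 4124 TPM in WT. Of the 10 genes, 4 did not overlap between clone 4.1 and WT, against 36.9% of all genes. FTH1 and SLC7A11 lay above WT. GCLM (-0.36, limma adjusted p = 0.264) and SRXN1 (-0.23, limma adjusted p = 0.163) lay below it.

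The R1 clones of WM115 shared a higher level of the light chain. FTL was at 5246, 4932, 4891, 4953 and 6129 TPM in clone 1.1 and at 5572, 5880 and 9691 TPM in clone 1.2, all above the highest WT library at 4124 TPM. The log2 difference was 0.73 in clone 1.1 (SE 0.24, limma adjusted p = 0.0338) and 1.11 in clone 1.2 (SE 0.27, limma adjusted p = 0.00831). The 2 comparisons share the WT libraries. In clone 1.1 the call ended without WT replicate 2 or 3 or without clone 1.1 replicate 1, 2, 3 or 5, at adjusted p from 0.0527 to 0.113. With no filter on low values the clone 1.1 call ended too (limma adjusted p = 0.0885). In clone 1.2 the FTL call ended without replicate 3, at 0.86 (adjusted p = 0.0802). It also ended in a fit of clone 1.2 and WT alone (0.0526) and with the replicate number as a block (0.163).

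Clone 1.1 had less GCLM. It was at 5.27, 9.32, 11.7, 11.3 and 8.94 TPM, each below the lowest WT library at 12.4 TPM, with a log2 difference of -0.60 (SE 0.20, limma adjusted p = 0.0378). The call ended without WT replicate 1, 2 or 3 or clone 1.1 replicate 1, 2 or 5, at adjusted p from 0.0565 to 0.0938. It also ended with no filter (limma adjusted p = 0.0751), under median-of-ratios scaling (0.0944) and under quantile normalization (0.112). A replicate block (0.0806) and the mitochondrial share as a term (0.126) ended it as well. SLC7A11 was at 1.31, 2.07, 1.87, 2.63 and 1.02 TPM, below the lowest WT library at 3.44 TPM, but its difference of -1.18 (SE 0.52) did not pass (limma adjusted p = 0.109). It passed without clone 1.2 replicate 1 (adjusted p = 0.0240), in a fit of clone 1.1 and WT alone (0.00433) and with the replicate number as a block (0.0232). Same-numbered libraries of this clone and WT did not all deviate together (r from -0.0423 to 0.331), so the block does not pair them. ACSL4 was also below WT in each library, at 23.3 to 29.5 against 32.7 to 41.9 TPM, and did not pass either, at -0.47 (limma adjusted p = 0.172), but did without clone 1.2 replicate 3 (0.0424), in a fit of clone 1.1 and WT alone (0.00965) and with the block (0.0250). NQO1 overlapped with WT, and its log2 difference of 0.38 (SE 0.20) did not pass (limma adjusted p = 0.167). It passed in a fit of clone 1.1 and WT alone (0.0301) and with the block, at 0.35 (0.047). In this clone 22.0% of genes passed, against 2 of the 10 genes, and 5 of the 10 did not overlap with WT, against 23.6% of all genes. SRXN1 was among those 5, below WT at -0.16 (limma adjusted p = 0.288).

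Clone 1.2 had more ACSL4, TXNRD1 and FTL, 3 of the 10 genes, where 22.6% of genes passed, and 4 of the 10 did not overlap with WT, against 28.3% of all genes. The other gene without overlap was NQO1, at 2043, 1727 and 2259 TPM, above the highest WT library at 1608 TPM. Its log2 difference of 0.55 (SE 0.22) did not pass (limma adjusted p = 0.0785), but did without clone 4.1 replicate 2 (0.0397). ACSL4 was at 82.1, 64.0 and 195 TPM, against 41.9, 38.2, 32.7 and 34.5 TPM in WT. Each clone library was above each WT library, and the log2 difference of 1.44 (SE 0.27) was the largest of the 9 calls (limma adjusted p = 0.00198). Without replicate 3, the library with little SOX10, the difference was 0.97 (adjusted p = 0.0117). With the replicate number as a block the ACSL4 call ended, at 1.41 (limma adjusted p = 0.159).

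TXNRD1 was at 592, 338 and 407 TPM in clone 1.2, above the WT range of 276 to 317 TPM. The log2 difference was 0.54 (SE 0.17, limma adjusted p = 0.0334). That call ended without WT replicate 1, 2 or 4 or without clone 1.2 replicate 1 or 3, at adjusted p from 0.0501 to 0.179, the difference being 0.32 without replicate 1. It also ended with no filter (limma adjusted p = 0.0611), in a fit of clone 1.2 and WT alone (0.102) and with the replicate block (0.207). SLC7A11 varied most in this clone, at 17.9, 2.38 and 0.56 TPM, and the other cystine importer chain, SLC3A2, fell by 1.47 (limma adjusted p = 0.0132). HMOX1 sits on chromosome 22, where the median difference of 400 tested genes was -0.45 in clone 1.2, and it was itself at 0.11 (limma adjusted p = 0.761).

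R4 clone 4.2 had less HMOX1, TXNRD1 and SRXN1, all of them NRF2 targets and 3 of the 10 genes, where 20.3% of genes passed. HMOX1 was at 3.19, 3.02 and 6.35 TPM, each below the WT range of 7.19 to 10.04 TPM, with a log2 difference of -0.96 (SE 0.23, limma adjusted p = 0.00720). TXNRD1 was at 187, 162 and 237 TPM, below the lowest WT library at 276 TPM, at -0.62 (SE 0.17, limma adjusted p = 0.0178). SRXN1 was at 27.3, 26.7 and 27.4 TPM, below the lowest WT library at 33.6 TPM, at -0.36 (SE 0.12, limma adjusted p = 0.0366). SRXN1 was also below each WT library in clones 1.1 and 4.1, without passing. In clone 1.2 it overlapped with WT, at -0.27 (limma adjusted p = 0.107), and passed without clone 1.2 replicate 1 (0.0111). GCLM overlapped with WT in clone 4.2, at -0.45 (limma adjusted p = 0.162).

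The calls of clone 4.2 differ in how far they depend on single libraries. HMOX1 ended without clone 4.2 replicate 2 (adjusted p = 0.0515), and TXNRD1 without clone 4.2 replicate 1 or 2 (0.0572 and 0.106). SRXN1 ended when any of the 4 WT libraries or the 3 clone libraries was left out, at adjusted p from 0.0524 to 0.105, and under median-of-ratios scaling, at -0.24 (adjusted p = 0.137). Quantile normalization ended the SRXN1 call too (limma adjusted p = 0.0884). With the replicate number as a block, HMOX1 (0.132), TXNRD1 (0.0771) and SRXN1 (0.161) did not pass, although the numbers do not pair these libraries. FTH1 was also below each WT library in clone 4.2, at 3023, 2109 and 3618 TPM, without passing (-0.54, limma adjusted p = 0.0672), and it passed without clone 1.2 replicate 3 (0.0408) or clone 4.2 replicate 3 (0.0341) and under quantile normalization (0.0353). The median log2 difference of the 10 genes was -0.41 in this clone, against -0.10 over all genes tested, and 5 of the 10 did not overlap with WT, against 32.1% of all genes.

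SLC7A11, another NRF2 target, lay on the other side of WT in both R4 clones. It was at 16.1, 10.6 and 7.44 TPM in clone 4.2 and at 9.63, 7.73 and 15.6 TPM in clone 4.1, each library above the highest WT library at 7.15 TPM. The log2 differences of 0.94 (limma adjusted p = 0.270) and 0.90 (limma adjusted p = 0.282) did not pass, and that of clone 4.1 passed in a fit of the clone and WT alone (adjusted p = 0.0439). SLC7A11 is thus the 1 of the 5 genes without overlap in clone 4.2 that was higher than WT.

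In clone 1.3, whose region is in conflict, none of the 10 genes passed and 1.06% of all genes did. All 10 overlapped with WT, where 11.5% of all genes did not. At an unadjusted p under 0.05 there were 2212 genes and none of the 10. SLC7A11 was at 18.9, 20.7 and 4.72 TPM, so that 2 libraries were above the WT range and 1 within it.

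The deletions themselves were compared over clones, R1 against R4, with 4 clones of each and the line as a covariate. None of the 10 genes passed in limma, and neither did any of the 15287 genes tested, 0%. FTL had the smallest p, with a log2 difference of 0.79 (SE 0.27, unadjusted p = 0.0186, adjusted p = 0.996), and it was the only gene of the 10 among 658 with an unadjusted p under 0.05. Clones with the same region were also set against each other, a comparison chosen after the values had been seen. In A375, 3 of the 10 genes differed between clones 1.1 and 1.2, where 13.2% of all genes passed, and none between clones 4.1 and 4.2, where 3.95% passed. In WM115, 4 of the 10 differed between clones 1.1 and 1.2, where 35.5% of all genes passed, and FTH1 alone between clones 4.1 and 4.2, where 6.75% passed.

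Other genes of the pathway were read from the same list. Of 76 pathway genes tested in WM115, 3 rose and 21 fell in clone 1.1 (31.6%, against 22.0% of all genes). In clone 1.2, 14 rose and 22 fell (47.4%, against 22.6%), in clone 4.1, 4 rose and 16 fell (26.3%, against 24.2%), and in clone 4.2, 2 rose and 24 fell (34.2%, against 20.3%). These shares were not tested against those of all genes. Of all genes called, 28.7%, 52.4%, 35.5% and 33.1% were higher in the 4 clones, and 53.2%, 54.3%, 56.6% and 52.5% under median-of-ratios scaling. Under that scaling the pathway counts became 5 higher and 14 lower in clone 1.1, 15 and 22 in clone 1.2, 10 and 9 in clone 4.1, and 5 and 19 in clone 4.2, so that falls no longer outnumbered rises in clone 4.1. In clone 1.3, 1 fell. In A375, of 74 tested, 5 rose and 2 fell in clone 1.2 (8.53% of all genes called), 2 fell in clone 4.1 (1.31%), and none passed in clones 1.1 (1.04%) and 4.2 (0.557%). Paired by replicate number, 7 rose and 10 fell in A375 clone 4.1, where 11.7% of all genes passed. The median differences of the list in the 4 WM115 clones were -0.19, -0.21, -0.19 and -0.29, against -0.12, -0.02, -0.10 and -0.10 over all genes tested.

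Among regulators of NRF2 in WM115, KEAP1, which targets NRF2 for degradation, averaged 65.3 ± 7.77 TPM in WT (SD, n = 4). It fell by 0.38 in clone 1.1 (limma adjusted p = 0.0304), 0.44 in clone 1.2 (0.0300) and 0.45 in clone 4.1 (0.0239). Under median-of-ratios scaling KEAP1 did not pass in clone 1.1 (-0.24, adjusted p = 0.131) or clone 4.1 (-0.32, adjusted p = 0.0794). NFE2L2 fell by 0.50 in clone 1.2 (limma adjusted p = 0.0206), from 125 ± 9.01 TPM in WT to 89.6 ± 20.9 TPM (SD, n = 3). BACH1, the repressor, rose by 0.61 in clone 4.1 (limma adjusted p = 0.0324). In the A375 clones KEAP1, NFE2L2 and BACH1 did not pass. With other settings, BACH1 rose by 0.57 in A375 clone 4.1 when paired by replicate number (adjusted p = 0.0149), and NFE2L2 passed as lower in A375 clone 1.2 under median-of-ratios scaling (-0.47, adjusted p = 0.0272) and quantile normalization (-0.44, adjusted p = 0.0139). MAFF, a small MAF partner, fell by 1.94 in WM115 clone 1.2 (limma adjusted p = 0.0229), and in clones 1.1 and 4.2 as well, by 1.58 (0.0311) and 1.86 (0.0285). MAFK rose by 0.71 in A375 clone 1.2 (limma adjusted p = 0.0103) and fell in WM115 clones 1.1, 4.1 and 4.2, by 0.68, 0.54 and 0.96 (limma adjusted p = 0.00430, 0.0310 and 0.00114), the call in clone 4.1 ending under median-of-ratios scaling and quantile normalization.

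Among enzymes and carriers around the 10 genes, MGST1, a membrane glutathione transferase, was at 326 ± 168 TPM in WM115 clone 1.2 (SD, n = 3) against 5.84 ± 1.97 TPM in WT (n = 4), a log2 difference of 5.50 (limma adjusted p = 0.000206). MGST1 also rose in WM115 clone 4.2, by 3.59 (limma adjusted p = 0.00385), and fell in WM115 clone 1.1, by 2.68 (limma adjusted p = 0.00920), where no library exceeded 0.185 TPM. In A375 it rose by 1.08 in clone 1.2 (limma adjusted p = 0.0223) and fell by 1.26 in clone 4.1 (0.0312). ABCC3, an exporter of conjugates, went from 1.64 ± 0.71 to 44.4 ± 23.0 TPM in WM115 clone 1.2, a log2 difference of 4.03 (limma adjusted p = 0.000308), and also rose in WM115 clone 4.1 and A375 clone 1.2. AKR1C2 fell by 2.33 in A375 clone 1.2 (limma adjusted p = 0.000179) and by 1.57 in A375 clone 4.1 (0.0203), values made uncertain by its near-identical paralogs.

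PTGS2, a prostaglandin synthase used as a marker of ferroptosis, was at 264 ± 41.5 TPM in WM115 clone 4.1 (SD, n = 3) against 5.74 ± 3.02 TPM in WT (n = 4), a log2 difference of 5.41 (limma adjusted p = 4.80e-09). It also rose in clone 4.2, by 2.89 (limma adjusted p = 3.17e-05), and fell in clone 1.1, by 1.87 (limma adjusted p = 0.000332), to 0.717 ± 0.323 TPM (SD, n = 5). In clone 4.1 SLC39A14, a carrier of non-transferrin iron and zinc, rose by 0.79 (limma adjusted p = 0.000915), and TKT, a transketolase of the pentose phosphate pathway, fell by 1.57 (limma adjusted p = 6.99e-05), as it did in clones 1.1 and 4.2. TXNIP, the inhibitor of thioredoxin, rose by 1.3 in clone 1.2 (limma adjusted p = 0.0119), and LRP8, a receptor for selenium-carrying selenoprotein P, fell by 0.98 there (0.000646) and also fell in clones 1.1 and 4.1. ALAS1, the first enzyme of heme synthesis, fell by 0.82 in clone 1.1 (limma adjusted p = 0.00130) and by 0.78 in clone 4.2 (0.00557). In A375 clone 1.2 FBXL5, an iron sensor that degrades iron regulatory protein, rose by 0.66 (limma adjusted p = 0.00533).

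The gene most like each of the 10, by Pearson's r of line-centred log2(TPM + 1) over 39 libraries among 15277 other genes, was found without regard to function. It was SRRT for GCLM (0.91), ZDHHC2 for ACSL4 (0.88), ZMYND19 for SRXN1 (0.87), PART1 for SLC7A11 (0.86), FLT3LG for GPX4 (0.86), KRTAP2-3 for TXNRD1 (0.83), SCAF4 for HMOX1 (0.83) and GFM1 for NQO1 (0.76). For the ferritins it was a pseudogene of each, FTH1P2 (0.97) and FTLP3 (0.89), which can share reads with its parent. Genes of a library share its depth and the closed sum of TPM, and the values are a description.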

How the data were processed

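The authors deposited 1 gene table and 1 transcript table in TPM, made with DRAGEN on GRCh38 per the submitters' processing notes, which give no versions. Counts, settings and annotation are not given in the sources used here. Each table has 6 columns that match no sample and were not used. For each line, limma (3.58.1; R 4.3.3) was fitted to log2(TPM + 1) values, with a variance trend and 1 coefficient per group. Genes reaching 1 TPM in 3 or more libraries of a line were tested (16692 in A375, 16997 in WM115), and all 10 genes passed that filter in both lines. Tests are two-sided, adjusted by Benjamini-Hochberg over all genes tested, at a threshold of 0.05. R1 and R4 were compared on clone means. The fit was tested on simulated data. Of the clones set against WT, same-numbered libraries paired with WT for A375 clone 4.1 alone (r from 0.326 to 0.776 in 4 pairs), by the rule that each pair exceeds 0.1; the labels do not say what a number marks. All 10 genes are named, from the pathway list the largest called difference of each group of genes in each line, and NFE2L2, KEAP1 and BACH1 in any case. The genes and lists were chosen with earlier results of these data known. Positions are from GENCODE 29.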

Additional observations from a re-analysis of the deposited data

Results flagged for a closer look

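In 2 of the 50 combinations of gene and group with 4 or 5 libraries, 1 library stood far from the others, about as often as chance gives (1 in 20). SRXN1 in A375 WT replicate 4 was at 54.83 TPM, with a gap of 0.845 of the group's range. FTL in WM115 R1 clone 1.1 replicate 5 was at 6129 TPM, with a gap of 0.713 of the range.

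Clones with the same deleted region differed in 8 genes over 4 pairs of clones (limma, adjusted over all genes). These pairs were compared after the values had been seen. In A375, clone 1.1 exceeded clone 1.2 in SLC7A11 by 1.82 on the log2 scale (adjusted p = 0.00146), in NQO1 by 1.16 (0.0317) and in SRXN1 by 0.91 (0.0353), 3 of the 10 genes where 13.2% of all genes passed. The SLC7A11 means were 35.6 and 9.03 TPM, with no overlap. In WM115 the difference between clones 1.1 and 1.2 was -1.91 for ACSL4 (adjusted p = 3.71e-05), -0.70 for TXNRD1 (0.00362), -0.64 for GCLM (0.0274) and -0.38 for GPX4 (0.0202), 4 of 10 where 35.5% passed. WM115 clone 4.1 exceeded clone 4.2 in FTH1 by 1.69 (adjusted p = 6.60e-05), with means of 9190 and 2916 TPM, 1 of 10 where 6.75% passed. Between A375 clones 4.1 and 4.2 none of the 10 genes passed, where 3.95% of all genes did.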

How the results depend on the processing

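In 3040 values recomputed under an alternative, 2916 kept their side of the threshold, 86 lost it, 38 gained it and none of the called genes changed direction; 74 signs differed for genes past the threshold on neither side. The A375 count of 1 became 0 with no filter, 3 with the replicate block (the paired calls of clone 4.1), 4 with the ribosomal protein share as a term, and 0 to 2 with 1 library left out. The WM115 count of 9 became 5 with the replicate block, although its numbers do not pair the libraries, 3 with a log2 difference of at least 1, 1 with the ribosomal protein share, and 5 to 11 with 1 library left out. The WT line count of 5 became 3 with a log2 difference of at least 1, 4 with the replicate block, and 4 to 6 with 1 library left out. The R1 against R4 count stayed at 0. The pathway count of 2 in A375 clone 4.1 became 17 with the replicate block, an alternative added after seeing the data, as were the scalings of the pathway counts. Median-of-ratios scaling moved the WM115 split from 5 higher and 4 lower to 7 and 2, and the median of all genes in clone 1.1 from -0.12 to -0.00; GPX4 in clones 4.1 and 4.2 was gained, and GCLM in clone 1.1 and SRXN1 in clone 4.2 were lost. It moved the WT line split from 5 higher to 4 higher and 1 lower, SLC7A11 being gained and GPX4 lost. Relative to their chromosome's median, 10 of 90 differences moved by more than 1 SE. The cause of these changes was not tested. Depth is unknown, which limits genes of few TPM such as SLC7A11 in WM115.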
